A study of Homo sapiens with 15 samples.

Results

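The 10 genes of iron and haem handling followed here, of 57820 gene identifiers in the files, were measured in 3 human acute myeloid leukemia (AML) cell lines after knockdown of RNF5, an endoplasmic reticulum ubiquitin ligase. They were HMOX1, HMOX2 and BLVRB, which degrade haem, TFRC and SLC11A2, which bring iron into the cell, FTH1, FTL and NCOA4, which store and release it, and IREB2 and ACO1, the iron regulatory proteins. Each was found by its symbol, and each had 1 row per file. The genes were selected on their normalized read counts in these same knockdown and control libraries, with the responses already in view. Their changes are therefore given as values and calls, with no p-value, and nothing further is drawn from the number of them that changed.

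RNA sequencing was done on 15 libraries in 6 groups. MOLM-13, a line with features of monocytic AML, had 3 pLKO and 2 shRNF5 libraries. U937, a monocytic line, had 2 pLKO and 2 shRNF5 libraries, and HL-60, a promyelocytic line, had 3 of each. pLKO is the empty lentiviral vector and shRNF5 is a vector that expresses a short hairpin RNA against RNF5, so all cells, controls included, had been transduced, and no drug was named for any group. The labels put the harvest at 7 days in the sample protocol and at 5 days in the series design, and they name a 3′ mRNA library kit where the methods name a poly(A) one. Which of the RNF5 hairpins was sequenced is not stated in the sources used here. Nothing in the labels says that replicates were separate cultures, so the spread between libraries may be technical.

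The values are normalized read counts, scaled by the authors within each line, and the estimated depth lay between 9700000 and 63800000 reads a library. In MOLM-13 the shRNF5 libraries, at 24400000 and 63800000 reads, were deeper than the pLKO libraries, at 9700000 to 15300000 reads, and the part of depth in the MOLM-13 results was not tested. RNF5 itself lay between 506 and 1223 in the pLKO libraries and between 37 and 133 in the shRNF5 libraries, with no overlap in any line. Of 7 myeloid marker genes, 6 were above 0 in each line. None of 4 T cell markers was above 0 in any library, and of 10 erythroid markers the single one above 0 was KLF1 in U937, at 35 to 45.

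Iron enters most cells as transferrin bound to the transferrin receptor TFRC, is reduced in the endosome and is carried into the cytosol by SLC11A2 (DMT1). What is not used is stored inside ferritin, a shell built of FTH1 and FTL chains, and NCOA4 takes ferritin to the lysosome when iron is needed again. Haem is opened by the oxygenases HMOX1, which is inducible, and HMOX2, which is constitutive. This frees iron, carbon monoxide and biliverdin, which the reductases BLVRA and BLVRB convert further. IREB2 and ACO1 bind iron-responsive elements, short RNA hairpins with a CAGUGN loop, when iron is low. Bound in a 5′ UTR they block translation, as for ferritin, and bound in a 3′ UTR they protect the mRNA from decay, as for TFRC. RNA-seq therefore reads the second of these controls but not the first.

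The elements are shown because their place tells which control by IREB2 and ACO1 can apply, on mRNA decay or on translation. Control of transcription is not read from them. They were sought in the GENCODE reference transcripts on GRCh37 as a 6-base loop CAGTGN on a stem of 5 base pairs (G-U pairs allowed) with an unpaired C below them. Such an element was found in a UTR of 4 of the 10 genes, and in 218 of all 19553 coding genes searched (1.11%). Loop bases are in capitals, written 5′ to 3′ on the transcript strand. In FTH1 (chr11:61735046-61735074, minus strand) and FTL (chr19:49468592-49468620, plus strand) it lay in the 5′ UTR, as in 24 genes in all (0.123%). In TFRC it occurred 4 times in the 3′ UTR (minus strand, chr3:195777850-195777878, chr3:195777446-195777474, chr3:195777381-195777409 and chr3:195777334-195777362), and in SLC11A2 once in the 3′ UTR (minus strand, chr12:51382051-51382080), there with 1 extra base on the 3′ side of the stem. Numbers beside TFRC give the position in its transcript. An element in the 3′ UTR was found in 194 genes (0.992%).
FTH1: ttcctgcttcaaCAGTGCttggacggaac
FTL: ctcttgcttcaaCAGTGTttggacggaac
TFRC (3295): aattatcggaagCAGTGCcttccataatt
TFRC (3699): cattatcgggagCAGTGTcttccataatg
TFRC (3764): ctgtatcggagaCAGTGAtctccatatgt
TFRC (3811): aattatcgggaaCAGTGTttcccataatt
SLC11A2: agccatcagagcCAGTGTgtttctatggtt

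HMOX1 was higher in the shRNF5 cells of U937 and HL-60 by a wide margin, FTH1 was higher there too, TFRC was higher in U937 alone of the 3 lines, and NCOA4 was lower in MOLM-13 and HL-60. A gene was called where a limma fit over all genes of the line gave an adjusted p (Benjamini-Hochberg) under 0.1 and a log2 fold change beyond 0.4 in size. All 10 genes were above 0 in each line and so entered every fit. In MOLM-13, 1 of the 10 was called, lower, where 2.04% of all 13026 genes tested were called (1.03% higher and 1.01% lower). In U937, 3 were called, all higher, where 15.7% of 13165 genes were called (6.92% higher and 8.74% lower). In HL-60, 4 were called higher and 1 lower, where 25.9% of 12570 genes were called (13.6% higher and 12.3% lower). The shRNF5 and pLKO libraries did not overlap for 7 of the 10 genes in each of MOLM-13 and U937 and for 5 in HL-60, and this held for 38.7%, 59.2% and 38.5% of all genes tested, line by line. The median log2 fold change of the 10 genes was 0.25, 0.23 and 0.16 in the same order, beside 0.01, 0.00 and 0.00 over all genes.

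**Figure D1:**
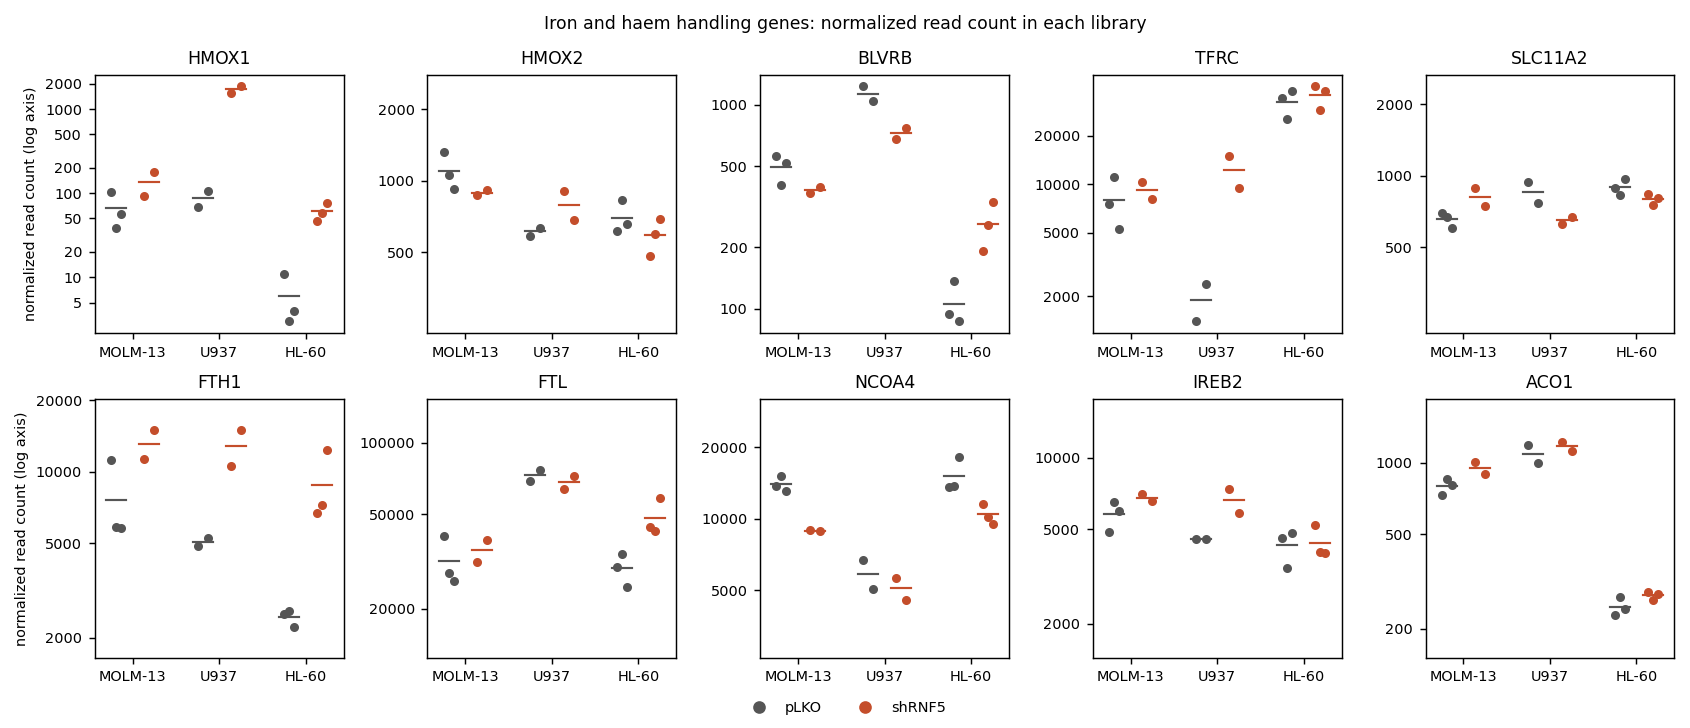
Normalized read count of each of the 10 genes (log axis, 1 panel a gene) by line, with 1 point a library, pLKO in grey and shRNF5 in red, and the group mean as a line. HMOX1 stood at 1563 and 1872 in the shRNF5 libraries of U937 and at 68 and 105 in its pLKO libraries, and TFRC was highest in HL-60, where both constructs overlapped.

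HMOX1, the inducible haem oxygenase (ENSG00000100292.12, chr22:35776354-35790207 on GRCh37), had the largest change of the 10 genes in U937 and HL-60. In U937 it read 68 and 105 in pLKO and 1563 and 1872 in shRNF5, a log2 fold change of 4.32 ± 0.32 (SE, n = 2 and 2). In HL-60 it read 11, 3 and 4 in pLKO and 47, 58 and 77 in shRNF5, a log2 fold change of 3.28 ± 0.45 (n = 3 and 3). In bulk libraries such as these, more RNA per cell and more cells that carry it cannot be told apart. The groups did not overlap in either line, although the highest shRNF5 value of HL-60 lay below the higher pLKO value of U937 on the scale of each line's own normalization. Fold changes are on the log2(value + 1) scale, and for values as low as those of HL-60 they depend on the pseudocount: with 10 in place of 1 the change was 2.15. In MOLM-13 HMOX1 read 103, 39 and 56 in pLKO and 92 and 179 in shRNF5, which overlapped, at 1.06 ± 0.46.

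HMOX2, the constitutive haem oxygenase (ENSG00000103415.7, chr16:4524691-4560348), was not called in any line. Its U937 values were 589 and 636 in pLKO and 903 and 683 in shRNF5, at a log2 fold change of 0.36 ± 0.27. It read 1328, 1061 and 925 against 873 and 913 in MOLM-13, at -0.29 ± 0.18, and 615, 829 and 658 against 484, 595 and 693 in HL-60, at -0.25 ± 0.17. The groups did not overlap in MOLM-13 and U937, with opposite signs, and overlapped in HL-60. Within each library the ratio of HMOX1 to HMOX2, which does not depend on library scaling, was 0.115 and 0.165 in pLKO and 1.73 and 2.74 in shRNF5 of U937, a 15.8-fold difference of the geometric means. It was 0.0179, 0.00362 and 0.00608 against 0.0971, 0.0975 and 0.111 in HL-60, a 13.9-fold difference, and 0.0776, 0.0368 and 0.0605 against 0.105 and 0.196 in MOLM-13, a 2.58-fold difference. The ratio did not overlap between constructs in any of the 3 lines, although HMOX1 itself overlapped in MOLM-13. How many ratios of other genes did not overlap was not counted.

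BLVRB, biliverdin reductase B (ENSG00000090013.5, chr19:40953672-40971671), went in opposite directions between lines. In HL-60 it read 94, 137 and 87 in pLKO and 191, 256 and 334 in shRNF5, at a log2 fold change of 1.28 ± 0.25, and was called higher. U937 libraries had it at 1231 and 1037 in pLKO and 680 and 766 in shRNF5, at -0.65 ± 0.25, and in MOLM-13 560, 404 and 517 against 371 and 393, at -0.36 ± 0.20. Neither was called, but in both the shRNF5 libraries lay below every pLKO library. In a single fit over the 15 libraries the response of U937 less that of HL-60 was -1.93 ± 0.35 (SE), and that of MOLM-13 less that of HL-60 was -1.64 ± 0.33.

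TFRC, the transferrin receptor that takes up most iron in dividing cells (ENSG00000072274.8, chr3:195739382-195809024), was called in U937 alone of the 3 lines. There it read 1400 and 2378 in pLKO and 15084 and 9536 in shRNF5, a log2 fold change of 2.72 ± 0.32. The lower shRNF5 library thus lay above the higher pLKO library. In MOLM-13 it read 7576, 11084 and 5277 in pLKO and 10353 and 8090 in shRNF5, at 0.26 ± 0.28, and in HL-60 34474, 25507 and 37927 against 40822, 29044 and 38412, at 0.15 ± 0.19. The groups overlapped in both lines. The response of U937 less that of HL-60 was 2.57 ± 0.43, and that of MOLM-13 less that of U937 was -2.45 ± 0.45.

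SLC11A2, the divalent metal transporter (ENSG00000110911.10, chr12:51373184-51422349), which carries an iron-responsive element in its 3′ UTR as TFRC does, did not follow TFRC in U937. It read 940 and 765 in pLKO and 629 and 670 in shRNF5 there, with no overlap, at a log2 fold change of -0.38 ± 0.26. In MOLM-13 it read 697, 668 and 602 against 885 and 744, also without overlap but on the other side, at 0.31 ± 0.17. In HL-60 it read 892, 829 and 966 against 838, 752 and 805, which overlapped, at -0.16 ± 0.12. It was called in no line. The deposited row sums all transcripts of the gene, with and without the element.

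FTH1, the ferritin heavy chain that oxidizes iron for storage (ENSG00000167996.11, chr11:61727190-61735106), was the one gene of the 10 whose shRNF5 libraries lay above every pLKO library in all 3 lines. How many of all genes did so in all 3 lines was not counted. In HL-60 FTH1 read 2513, 2586 and 2208 in pLKO and 6711, 7234 and 12358 in shRNF5, a log2 fold change of 1.79 ± 0.20, and was called. Its values in U937 were 4837 and 5265 against 10592 and 15028, at 1.32 ± 0.26, and was called. In MOLM-13 it read 11191, 5834 and 5810 against 11289 and 14920, at 0.84 ± 0.29, and was not called. There pLKO replicate 1, at 11191, lay next to the lower shRNF5 library, and without it the change was 1.16 and was called. This was 1 of 14 alternatives, and FTH1 was called in no other, with changes from 0.64 to 1.16. Leaving out pLKO replicate 1 also raised the calls over all genes of MOLM-13 from 266 to 872.

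FTL, the ferritin light chain (ENSG00000087086.9, chr19:49468566-49470136), was called higher in HL-60, where it read 29828, 34073 and 24656 in pLKO and 43961, 42308 and 58362 in shRNF5, at 0.70 ± 0.18. Values in U937 were 68968 and 76654 against 63731 and 72423, at -0.10 ± 0.31, and in MOLM-13 40477, 28272 and 26094 against 31542 and 38760, at 0.17 ± 0.21. The groups overlapped in both. The ratio of FTH1 to FTL within a library was higher in shRNF5 than in pLKO in each line with no overlap. It was 0.276, 0.206 and 0.223 against 0.358 and 0.385 in MOLM-13 (1.59-fold), 0.0701 and 0.0687 against 0.166 and 0.208 in U937 (2.68-fold), and 0.0842, 0.0759 and 0.0896 against 0.153, 0.171 and 0.212 in HL-60 (2.13-fold). The heavy chain RNA thus stood higher relative to the light chain RNA in the knockdown cells of each line. For this ratio too, the share of other gene ratios without overlap was not counted.

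Both ferritin genes have processed pseudogenes of near-identical sequence, so reads may be split among copies and their values carry that uncertainty. Few reads were assigned to such copies, which does not measure how many shared reads were lost or placed on another copy. FTH1P8 read 32, 22 and 31 against 37 and 81 in MOLM-13 and 2 and 8 against 27 and 57 in U937, and was listed at 0 in HL-60. Of the FTL copies, FTLP3 read 90 to 349 over all libraries and FTLP2 at most 27.

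NCOA4, the cargo receptor that delivers ferritin for breakdown (ENSG00000138293.15), was lower in shRNF5 in MOLM-13 and HL-60. In MOLM-13 it read 13796, 15151 and 13103 in pLKO and 8984 and 8896 in shRNF5, a log2 fold change of -0.65 ± 0.13. In HL-60 it read 13693, 13805 and 18210 against 11615, 10222 and 9517, at -0.54 ± 0.15. Both were called, with no overlap between constructs. U937 showed 6707 and 5077 against 5634 and 4567, which overlapped, at -0.20 ± 0.26.

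The iron regulatory proteins were called in no line. IREB2 (ENSG00000136381.8, chr15:78729773-78793795) read 4571 and 4565 in pLKO and 7364 and 5870 in shRNF5 of U937, at a log2 fold change of 0.53 ± 0.24. It read 4890, 6487 and 5979 against 7010 and 6601 in MOLM-13, at 0.24 ± 0.16, and 4614, 3452 and 4818 against 5193, 4009 and 3971 in HL-60, at 0.04 ± 0.16. ACO1, which is the cytosolic aconitase when it holds its iron-sulphur cluster (ENSG00000122729.14, chr9:32384601-32454767), read 729, 853 and 807 against 1010 and 897 in MOLM-13, at 0.26 ± 0.16. It read 1188 and 994 against 1220 and 1124 in U937, at 0.11 ± 0.25, and 229, 271 and 241 against 286, 265 and 280 in HL-60, at 0.17 ± 0.15. The shRNF5 libraries lay above the pLKO libraries for IREB2 in MOLM-13 and U937 and for ACO1 in MOLM-13, and overlapped them elsewhere.

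Some of the calls were lost with 1 library left out. In MOLM-13 and U937 the same fits lost most calls over all genes, so a lost call there does not show that a gene rests on 1 library. The log2 fold change of NCOA4 in MOLM-13 stayed between -0.69 and -0.59 over all alternatives. In MOLM-13 the call of NCOA4 was lost with pLKO replicate 2 or 3 or shRNF5 replicate 1 or 2 left out, and also without the mean-variance trend of the fit. In U937, where each group has 2 libraries, the calls of HMOX1, TFRC and FTH1 were lost without pLKO replicate 2 or shRNF5 replicate 1, and those of TFRC and FTH1 also without shRNF5 replicate 3. That of FTH1 was lost without the mean-variance trend too. Their log2 fold changes stayed between 4.01 and 4.63 for HMOX1, 2.33 and 3.10 for TFRC and 1.07 and 1.57 for FTH1 over all alternatives. In HL-60 the call of FTL was lost without pLKO replicate 3, and that of NCOA4 without pLKO replicate 3 or shRNF5 replicate 3, while those of HMOX1, FTH1 and BLVRB were kept whichever library was left out.

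**Figure D2:**
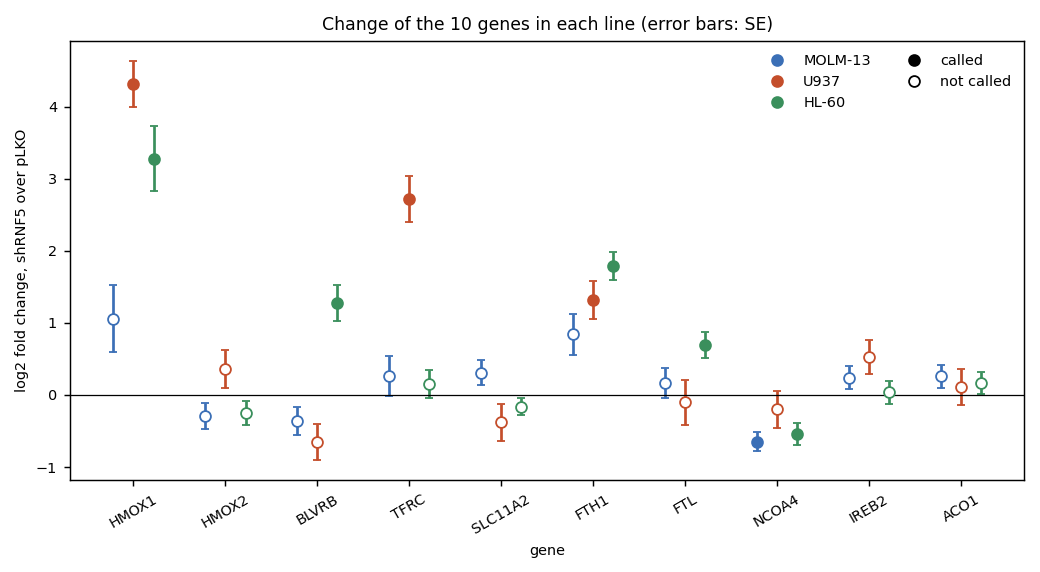
Log2 fold change of shRNF5 over pLKO (y axis) for the 10 genes in each line, with the SE of the limma fit as bars, filled where called and open where not. HMOX1 reached 4.32 in U937 and 3.28 in HL-60, TFRC 2.72 in U937, and BLVRB lay at 1.28 in HL-60 but below 0 in the other lines.

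TFRC and FTH1, whose RNAs carry elements at opposite ends, were also set against each other in each library. In U937 the ratio of TFRC to FTH1 was 0.289 and 0.452 in pLKO and 1.42 and 0.635 in shRNF5, so TFRC was higher relative to FTH1 (2.63-fold). In HL-60 the ratio was 13.7, 9.86 and 17.2 in pLKO and 6.08, 4.01 and 3.11 in shRNF5, a change to 0.32 of the control ratio. In MOLM-13 it was 0.677, 1.9 and 0.908 against 0.917 and 0.542, which overlapped. The ratio was thus higher in shRNF5 than in pLKO in U937 and lower in HL-60, where FTH1 was called and TFRC was not. The difference between lines in this ratio was not tested.

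**Figure D3:**
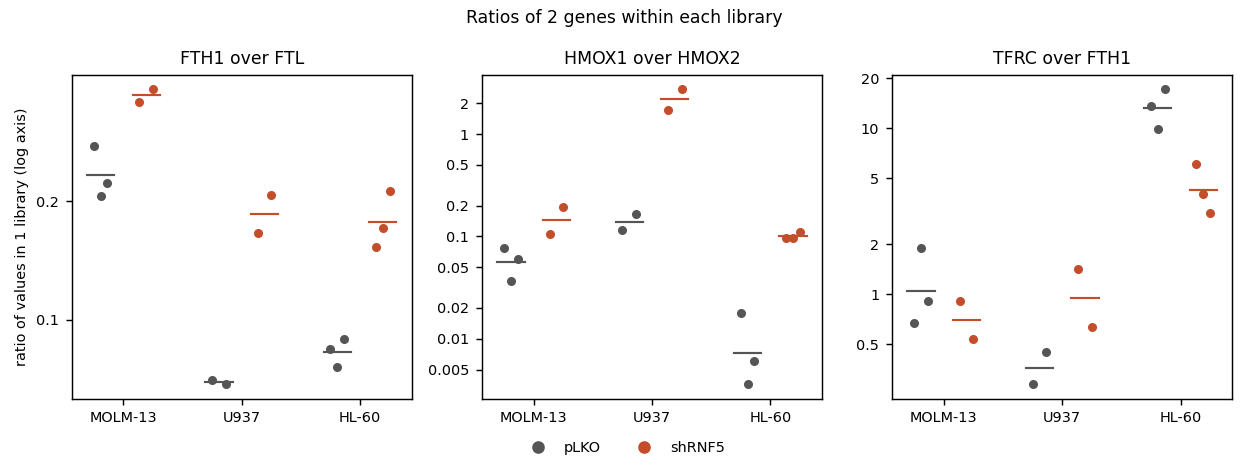
Ratios of the normalized read counts of 2 genes within each library (log axis) by line, with 1 point a library, pLKO in grey and shRNF5 in red, and the geometric mean as a line. FTH1 over FTL and HMOX1 over HMOX2 were higher in shRNF5 in each line without overlap, while TFRC over FTH1 was higher in U937, lower in HL-60 and overlapped in MOLM-13.

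The control cells themselves started from different levels. Because the authors normalized each line separately, these levels are given per 1000000 of a library's summed values, in pLKO libraries, as mean ± SD (n = 3, or 2 in U937). TFRC was highest in HL-60 at 2015 ± 408, followed by MOLM-13 at 313 ± 109 and U937 at 117 ± 44.9, with no overlap. NCOA4 had the same order, at 940 ± 157, 551 ± 31.5 and 362 ± 63.7. U937 was highest for BLVRB, at 69.7 ± 7.05 against 19.4 ± 3.35 in MOLM-13 and 6.53 ± 1.6 in HL-60, and for ACO1, at 67.1 ± 7.11, 31.3 ± 2.42 and 15.2 ± 1.16. HMOX1 was at 5.34 ± 1.72 in U937 (4.13 to 6.56) and 2.6 ± 1.3 in MOLM-13 (1.51 to 4.03), which lay close without overlap, and at 0.372 ± 0.275 in HL-60, below every library of the other lines.

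FTL was highest in U937 at 4486 ± 424, while HL-60 at 1820 ± 283 and MOLM-13 at 1242 ± 298 overlapped. FTH1 overlapped between U937 (311 ± 24.8) and MOLM-13 (299 ± 121) and was lower in HL-60 (150 ± 12.5). SLC11A2 overlapped between HL-60 (55.3 ± 4.46) and U937 (52.4 ± 6.57) and was lower in MOLM-13 (25.8 ± 1.56). HMOX2, with means of 37.7 to 43.4, overlapped among the lines. IREB2 in HL-60 (211 to 296) overlapped both other lines, while its U937 libraries (277 to 285) lay above its MOLM-13 libraries (191 to 251). On this scale HMOX1 in shRNF5 cells reached 103 ± 18.6 in U937, 5.41 ± 2.53 in MOLM-13 and 3.68 ± 0.842 in HL-60, so its level after knockdown in HL-60 was within the range of the control MOLM-13 libraries (1.51 to 4.03) except in the highest library (4.56).

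Over the 15 libraries, the genes whose log2 values, less the pLKO mean of the line, followed HMOX1 most closely among 11071 genes were RIPK1, SSH3 and BIN2, with Pearson's r of 0.96, 0.95 and 0.95. RIPK1, a kinase of death receptor signalling, read 333 to 357 in pLKO and 690 to 794 in shRNF5 of U937, and 305 to 314 against 525 to 607 in HL-60. Of the other 9 genes, FTH1 was closest, with r = 0.89 at rank 20, and SLC11A2 was farthest, with r = -0.62. The libraries share lines and constructs, so these coefficients describe the pattern over 6 groups.

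The rest of the pathway was read from lists of companion genes by role, of which 75 were in the files. The lists were made by role with earlier results of these data known, and the genes named from them include the largest changes among those called in each line. Their adjusted p-values from limma run over all genes of a line and do not account for that choice. In MOLM-13 none of 56 tested was called, where 2.04% of all genes were called. An unadjusted p under 0.05 was seen for 12 of them, and its share over all genes was not counted. In U937, 4 of 60 rose and 4 fell, and in HL-60, 7 of 55 rose and 7 fell. These counts of 8 and 14, and the counts by list given below, stand beside the 15.7% and 25.9% of all genes called in those lines. The median log2 fold change was -0.12 in each of MOLM-13 and U937 and -0.08 in HL-60, beside 0.01, 0.00 and 0.00 over all genes. Of the 21 companion genes called in any line, 1 was called in both U937 and HL-60, ISCU, the scaffold for iron-sulphur clusters, which fell in U937 and rose in HL-60. ISCU was outside the naming rule and was chosen after its values were seen.

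Of 8 haem synthesis genes tested, 1 rose and 2 fell in U937, 1 rose in HL-60, and none was called in MOLM-13. ALAS1, the rate-limiting enzyme outside the red cell lineage, read 1839 and 1610 in pLKO and 2713 and 2780 in shRNF5 of U937, at a log2 fold change of 0.67 ± 0.23 (limma, adjusted p = 0.0988). It read 1814, 1421 and 1757 against 2051 and 2291 in MOLM-13 (0.39 ± 0.16, limma adjusted p = 0.275) and 1838 to 1874 against 1387 to 1998 in HL-60 (-0.14 ± 0.14, limma adjusted p = 0.523). PPOX, a late enzyme of the pathway, read 583 and 650 against 222 and 387 in U937 and fell by 1.07 ± 0.33 (limma, adjusted p = 0.0752). CPOX, the enzyme before it, read 631, 529 and 638 against 986, 1026 and 1123 in HL-60 and rose by 0.80 ± 0.13 (limma, adjusted p = 0.00367).

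Of the genes of haem breakdown and transport, none of 12 was called in U937 and none of 10 in MOLM-13. An unadjusted limma p under 0.05 was seen for 2 and 3 of them, with the share over all genes not counted. In HL-60, 2 of 10 rose and 3 fell, where 13.6% of all genes were called higher and 12.3% lower. SLC48A1 (HRG1), which carries haem out of endosomes and lysosomes, read 211, 176 and 179 in pLKO and 580, 292 and 630 in shRNF5 of HL-60, at 1.33 ± 0.26 (limma, adjusted p = 0.00729). FLVCR1, an exporter known for carrying haem, read 1045, 806 and 1048 against 550, 583 and 507, at -0.81 ± 0.14 (limma, adjusted p = 0.00515). The importer with the higher RNA and the exporter with the lower RNA did not overlap between constructs. SLC46A1, a folate transporter that can carry haem, read 23, 32 and 38 against 18, 12 and 11 in HL-60, at -1.13 ± 0.35 (limma, adjusted p = 0.0449). In U937 SLC48A1 was at 0.68 ± 0.30 and FLVCR1 at -0.36 ± 0.25, and in MOLM-13 they were at 0.18 ± 0.19 and -0.19 ± 0.17, none of them called. BLVRA, the other biliverdin reductase, was not called in any line, at -0.72 ± 0.37, -0.40 ± 0.24 and -0.91 ± 0.37 in MOLM-13, U937 and HL-60 (limma, adjusted p = 0.354, 0.315 and 0.108). In HL-60, where BLVRB was called higher, BLVRA read 20, 49 and 33 against 15, 15 and 20.

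Of the genes of iron uptake and reduction, none of 7 was called in MOLM-13, 1 of 8 rose and 1 fell in U937, and 1 of 6 rose and 2 fell in HL-60. STEAP3, the endosomal reductase that prepares iron for SLC11A2, read 845 and 906 in pLKO and 1546 and 1322 in shRNF5 of U937, at 0.71 ± 0.25 (limma, adjusted p = 0.0997). TF, transferrin itself, read 91 and 51 against 3 and 8 in U937, at -3.53 ± 0.72 (limma, adjusted p = 0.0256), and was listed at 0 in the other lines. SLC39A14 (ZIP14), which imports iron that is not bound to transferrin, read 919, 914 and 995 against 369, 506 and 301 in HL-60 and fell by 1.30 ± 0.18 (limma, adjusted p = 0.00189). TFR2, the second transferrin receptor, read 63, 76 and 76 against 21, 47 and 35 there and fell by 1.11 ± 0.31 (limma, adjusted p = 0.0308), beside no call for TFRC in the same cells.

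Ferroportin (SLC40A1), the known exporter of iron, was listed at 0 in every library of MOLM-13 and HL-60. U937 libraries held it at 177 and 356 in pLKO and 220 and 351 in shRNF5, at 0.15 ± 0.41 (limma, adjusted p = 0.845). Of the 6 export genes in the files it alone was tested, and in U937 only.

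BACH1, the haem-sensing repressor of HMOX1 and the ferritin genes, fell in HL-60, where it read 1402, 999 and 1382 in pLKO and 970, 797 and 779 in shRNF5, at -0.56 ± 0.16 (limma, adjusted p = 0.0325). Its shRNF5 libraries also lay below its pLKO libraries in MOLM-13 (959, 1284 and 1158 against 888 and 834, -0.39 ± 0.17, limma adjusted p = 0.3) and U937 (2490 and 1157 against 917 and 838, -0.95 ± 0.34, limma adjusted p = 0.106), where it was not called. It was the single call among the 6 genes tested in this list of chaperones and regulators. FBXL5, the iron sensor that removes IREB2, and the iron chaperones PCBP1 and PCBP2 were not called in any line, with log2 fold changes between -0.33 and 0.43.

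Of 25 genes of mitochondrial iron and iron-sulphur clusters, none was called in MOLM-13, 2 rose and 1 fell in U937, and 3 rose and 1 fell in HL-60. IBA57, an assembly factor for iron-sulphur clusters, read 153 and 84 in pLKO and 321 and 216 in shRNF5 of U937, at 1.21 ± 0.41 (limma, adjusted p = 0.094). CISD2, a cluster protein of the outer mitochondrial and endoplasmic reticulum membranes, read 302 and 481 against 808 and 643 there, at 0.92 ± 0.31 (limma, adjusted p = 0.0951).

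In U937, leaving out a library left 1 in its group. Without pLKO replicate 2, shRNF5 replicate 1 or shRNF5 replicate 3, nearly all calls over all genes were lost, the companion calls among them. The loss of a call there does not show that a gene rests on 1 library. ALAS1, STEAP3, IBA57 and PPOX were also lost without pLKO replicate 3. With each library left out, the log2 fold change was 0.58 to 0.77 for ALAS1 and 0.59 to 0.82 for STEAP3. It was 0.78 to 1.64 for IBA57, -1.47 to -0.67 for PPOX, 0.58 to 1.25 for CISD2 and -4.11 to -2.94 for TF. In HL-60 the calls of SLC48A1, FLVCR1, SLC39A14 and CPOX were made whichever library was left out. That of TFR2 was lost without pLKO replicate 3, that of BACH1 without pLKO replicate 1 or 3 or shRNF5 replicate 3, and that of SLC46A1 without pLKO replicate 2 or 3 or shRNF5 replicate 3.

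**Figure D4:**
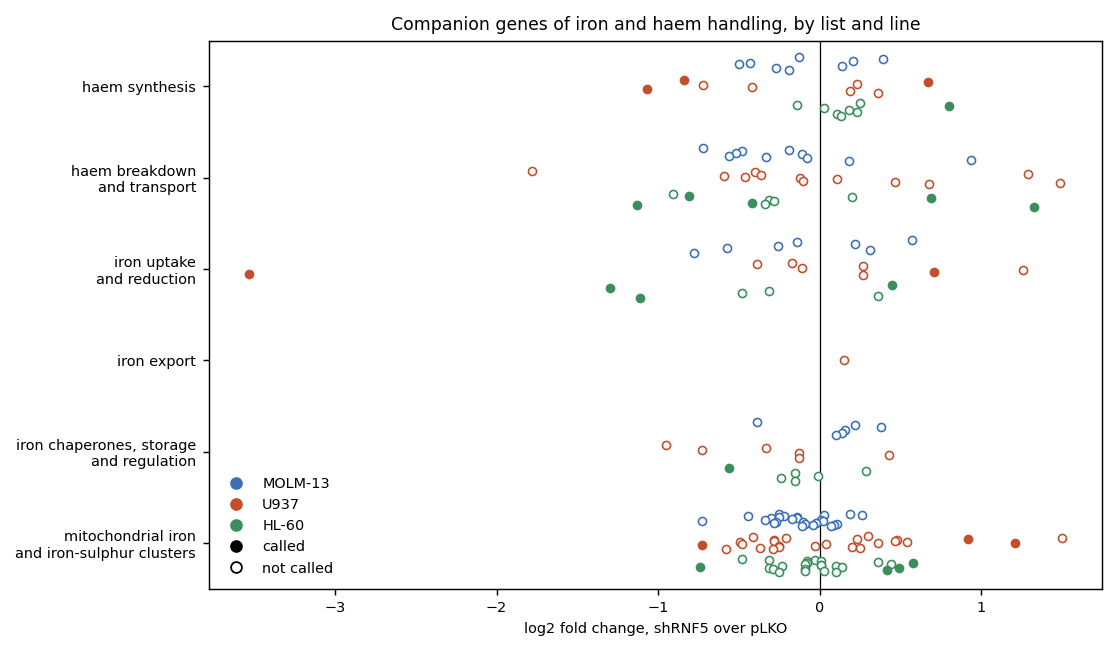
Log2 fold change of shRNF5 over pLKO (x axis) for each companion gene tested, by list (y axis) and line (color), filled where called and open where not. None of the 56 points of MOLM-13 is filled, and TF in U937, at -3.53, lies farthest from 0.

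The lines were also compared for their responses in a single limma fit over the 15 libraries, on 54 companion genes above 0 in all 3 lines. The response differed for 18 between U937 and HL-60 (37.2% of all 11072 genes), for 6 between MOLM-13 and U937 (15.4%) and for 4 between MOLM-13 and HL-60 (8.82%). SLC39A14 had the lowest adjusted p of them, and differed by 1.56 ± 0.27 between U937 and HL-60 (limma, adjusted p = 0.00127) and by 1.03 ± 0.25 between MOLM-13 and HL-60 (limma, adjusted p = 0.038). ALAS1 differed by 0.81 ± 0.23 between U937 and HL-60 (limma, adjusted p = 0.0171), and PPOX by -1.29 ± 0.37 (limma, adjusted p = 0.0183). For BACH1 no difference between lines passed the test.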

How the data were processed

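Libraries from MOLM-13, U937 and HL-60 cells were assigned to pLKO or shRNF5 from the sample titles, which also give the replicate numbers. Per the paper's methods and the labels, the authors trimmed and aligned the reads (STAR, hg19), counted reads by gene with featureCounts and normalized with edgeR. The deposited values are a score, namely read counts that the authors divided by a factor for each library within a line and then rounded, and genes below their filter are listed at 0. Count tests were therefore not run.

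The 10 genes, the companion lists and the naming rule were chosen with earlier results of these data known. In each line, limma 3.58.1 in R 4.3.3 was fitted with a mean-variance trend (empirical Bayes) to log2(value + 1) of the genes above 0 in at least 1 library. Calls needed an adjusted p under 0.1 and a log2 fold change beyond 0.4 in size. Responses were compared between lines in a single fit over genes above 0 in all 3 lines. P-values set a difference against the spread between these libraries, which may be technical. The genes named are RNF5, the 10 genes, 10 preset companion genes, the 4 other called companions with the largest change in each line, and the 3 genes most like HMOX1. Ferritin pseudogenes were read beside their parent genes, which does not measure the shared reads. The result of a further marker list is not reported here. Steps between rounded values gave an estimate of each library's depth, and no counting interval is given. The procedures were tested on simulated data, and no 2 libraries were identical. Iron-responsive elements and coordinates came from GENCODE on GRCh37, the build of hg19. The alternatives tried were other pseudocounts (0.5 and 10), a mean value of at least 50, rescaling by median of ratios, no trend, a single fit over the 15 libraries, a correction for transcript length, an adjusted p under 0.05, a replicate block and leaving out each library.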

Additional observations from a re-analysis of the deposited data

Results flagged for a closer look

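Responses to knockdown were compared between lines by a limma test of the difference itself in a single fit over the 15 libraries. At a Benjamini-Hochberg adjusted p under 0.1, 9 of the named companion genes differed between U937 and HL-60. Over all 11072 genes, 37.2% differed for this pair. Some named genes were taken for the size of their called change in these same libraries, which the adjusted p does not account for. On the log2 scale the response of U937 less that of HL-60 was 2.62 for SLC46A1, 1.56 for SLC39A14, 1.37 for TFR2, 1.1 for IBA57, 0.81 for ALAS1, 0.67 for PCBP1, -0.57 for CPOX, -0.63 for FBXL5 and -1.29 for PPOX. Of these, PCBP1 and FBXL5 were called in neither line alone. SLC46A1 in U937 read 12 and 139 in pLKO and 94 and 151 in shRNF5, which overlapped, and its log2 fold change there was -0.22 without pLKO replicate 2. The response of MOLM-13 less that of U937 was 1.21 for PPOX, -1.13 for CISD2 and -1.19 for IBA57, and that of MOLM-13 less that of HL-60 was 1.03 for SLC39A14 and -1.15 for SLC48A1. The number of differences changed with single libraries. The companion genes that differed between MOLM-13 and U937 went from 6 to 0 without U937 shRNF5 replicate 1 and to 0 with the replicate block, and to 1 without either MOLM-13 shRNF5 library or U937 pLKO replicate 2. Those that differed between MOLM-13 and HL-60 went from 4 to 0 without either MOLM-13 shRNF5 library or HL-60 shRNF5 replicate 3. Between U937 and HL-60 the 18 became 5 with the replicate block, 10 without U937 shRNF5 replicate 1 and 29 without U937 pLKO replicate 3.

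For BLVRB, HMOX2 and SLC11A2 the shRNF5 libraries lay wholly above the pLKO libraries in 1 line and wholly below them in another. BLVRB did so between U937 and HL-60 (a difference of responses of -1.93) and between MOLM-13 and HL-60 (-1.64), and HMOX2 (-0.65) and SLC11A2 (0.69) did so between MOLM-13 and U937. How many of all genes did so was not counted. Libraries of the constructs did not overlap within a line for 38.7%, 59.2% and 38.5% of all genes tested in MOLM-13, U937 and HL-60. HMOX2 and SLC11A2 were called in no line. The differences of response were not tested, because the genes were selected on the same responses. In MOLM-13 the estimated depth of the constructs did not overlap, and its part in these differences was not tested.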

How the results depend on the processing

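The number of the 10 genes called was 1, 3 and 5 in MOLM-13, U937 and HL-60. It was 0 in MOLM-13 at an adjusted p under 0.05 and without the mean-variance trend, and 5 in U937 in a single fit over the 15 libraries. With each library left out it ran from 0 to 2, 0 to 3 and 3 to 5 for these lines. No call of the 10 genes changed sign under any alternative. Changes of ACO1 and FTL in U937, IREB2 and TFRC in HL-60 and TFRC in MOLM-13, none of them called, took the other sign under at least 1 alternative. The companion genes called in U937 were 8, and were 5 with a pseudocount of 0.5, 1 at an adjusted p under 0.05, 2 without the trend and 13 in the single fit. With each library left out the companion genes called ran from 0 to 4, 0 to 10 and 7 to 15 for the lines in that order. The companion genes whose response differed were 2 for MOLM-13 against U937 and 1 for MOLM-13 against HL-60 at an adjusted p under 0.05, and 12 for MOLM-13 against U937 with the transcript length correction. With each library left out they were 0 to 21 for MOLM-13 against U937, 0 to 9 for MOLM-13 against HL-60 and 10 to 29 for U937 against HL-60. Where a group was left with 1 library, that library was assumed to vary like the others.

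Over all genes, calls in MOLM-13 fell from 266 to 39 at an adjusted p under 0.05 and to 55 without the trend, and ranged from 1 to 872 with each library left out. In U937 they went from 2062 to 824, 475 and, in the single fit, 3994, with 0 to 2369 under leaving out, and in HL-60 from 3251 to between 1970 and 3413. Differences over all genes ranged from 130 to 3436, 49 to 1566 and 2609 to 4798 for the 3 pairs under leaving out, and the first 2 were 808 and 360 at an adjusted p under 0.05.

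The replicate numbers shared by both constructs were also used as a block. Deviations from group means of same-numbered libraries correlated at -0.173 and -0.530 (MOLM-13), 0.256 (U937, 1 pair) and 0.505, 0.156 and -0.109 (HL-60). In a group of 2 libraries the deviations mirror each other, so MOLM-13 and U937 gave no separate comparison with another number. In HL-60 replicates 2 and 3 correlated better with another number. The numbers were therefore not taken as pairing the samples. With the replicate block, 1 of the 10 genes was called in MOLM-13 and 5 in HL-60, 1 companion gene in MOLM-13 and 16 in HL-60, and 738 genes in all in MOLM-13. The companion genes whose response differed were then 0 for MOLM-13 against U937, 8 for MOLM-13 against HL-60 and 5 for U937 against HL-60 (27, 1922 and 1482 over all genes). The groups of U937 share only number 3, so no block was fitted for that line alone.

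Log2 fold changes that were not called changed sign for a few companion genes. IBA57 in MOLM-13 was -0.16 with the length correction, -0.12 with the block and -0.17 to 0.21 with each library left out. Under leaving out, PCBP1 ranged from -0.03 to 0.29, PCBP2 from -0.0004 to 0.25 and PPOX from -0.03 to 0.27 in MOLM-13. In U937 SLC40A1 ranged from -0.36 to 0.65, FBXL5 from -0.70 to 0.04 and PCBP2 from -0.46 to 0.21. SLC46A1 in U937, at 1.49 ± 0.87, was -0.22 without pLKO replicate 2 and 3.21 without pLKO replicate 3. In HL-60 ALAS1 ranged from -0.26 to 0.01. The cause of these shifts was not tested. Depth limits the genes with low values most, such as HMOX1 in the HL-60 controls, TF and SLC46A1.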

Other observations

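Several called companion genes fell outside the naming rule and are given here, chosen after their values were seen. ISCU, the scaffold on which clusters are built, read 1357, 1358 and 1225 in pLKO and 1650, 1724 and 2189 in shRNF5 of HL-60, a log2 fold change of 0.49 ± 0.13 (SE; limma, adjusted p = 0.0298). In U937 it read 1422 and 1820 against 915 and 1030, at -0.73 ± 0.25 (limma, adjusted p = 0.099), and the response differed between these lines by -1.22 ± 0.24 (limma, adjusted p = 0.00249). FDX1, the ferredoxin that supplies electrons for cluster assembly, read 414, 383 and 426 against 573, 558 and 710 in HL-60, at 0.58 ± 0.14 (limma, adjusted p = 0.0189). ISCA1, a late assembly factor, went the other way, at 590, 562 and 594 against 305, 463 and 300 (-0.74 ± 0.18, limma adjusted p = 0.0174). NFU1, another late factor of cluster assembly, read 350, 426 and 409 against 496, 493 and 596 in HL-60, at 0.42 ± 0.15 (limma, adjusted p = 0.0676). CYBRD1, a ferric reductase, read 1098, 1147 and 1163 against 1670, 1341 and 1668 in HL-60, at 0.45 ± 0.13 (limma, adjusted p = 0.0315). PGRMC2, a haem chaperone, fell there from 1377, 1370 and 1547 to 1123, 1157 and 947, at -0.42 ± 0.13 (limma, adjusted p = 0.0416).

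HEBP1, a haem-binding protein, read 308, 410 and 340 in pLKO and 371, 780 and 625 in shRNF5 of HL-60, which overlapped, at 0.69 ± 0.24 (limma, adjusted p = 0.0682). In U937 it read 1012 and 920 against 672 and 727 and in MOLM-13 847, 684 and 804 against 513 and 567, lower without overlap in both and not called. Its response in HL-60 differed from that in U937 (limma, adjusted p = 0.0212) and from that in MOLM-13 (limma, adjusted p = 0.0509). ALAD, the second enzyme of haem synthesis, read 947 and 824 against 445 and 547 in U937, at -0.84 ± 0.27 (limma, adjusted p = 0.0828), and 565, 603 and 635 against 764, 694 and 688 in HL-60, at 0.25 ± 0.12 (limma, adjusted p = 0.176). The response differed between these lines by -1.09 ± 0.22 (limma, adjusted p = 0.00265).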
